A study of Mus musculus with 12 samples.

Results

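The genes described here encode the 4 chains of the receptors for interleukin 33 (IL-33) and interleukin 18 (IL-18): Il1rl1, Il1rap, Il18r1 and Il18rap. They were chosen by name, 4 of 14560 genes listed in the deposited table, and each was listed once. RNA was sequenced from populations sorted from the bone marrow of C57BL/6 mice, with 3 libraries for each of 4 populations; the design text speaks of 3 C57Bl/6J mice and independent triplicates, and no treatment, transgene or deletion is named. DN-GMPs, Pro-BMPs and Pre-BMPs shared a progenitor gate (B220, CD3, Ter119, CD11b, Gr1 and Sca1 negative; c-Kit, CD34 and CD16/32 positive). Within it, DN-GMPs lacked surface E-cadherin (CDH1) and the IgE receptor chain FceRIa, Pro-BMPs carried CDH1 alone, and Pre-BMPs carried FceRIa, with CDH1 labelled negative. Basophils were negative for c-Kit, B220, CD4, CD8a, Ter119 and Sca1 and positive for CD49b and FceRIa. The labels do not say which mouse gave which library, so each p-value reflects how far libraries of 1 population differ, which may be technical. In such bulk samples, fewer cells of a type and less RNA per cell cannot be told apart.

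Each of these receptors is a pair. A chain that binds the cytokine (ST2, encoded by Il1rl1, for IL-33; IL-18R alpha, encoded by Il18r1, for IL-18) recruits an accessory chain (IL-1RAcP, encoded by Il1rap, or IL-18R beta, encoded by Il18rap), and the paired intracellular TIR domains bind the adaptor MyD88. IRAK kinases and TRAF6 then carry the signal to NF-κB and MAP kinases. IL-1RAcP is shared with the receptors for IL-1 and IL-36, whereas IL-18R beta serves IL-18. Basophils and mast cells are known to answer IL-33 with cytokine release, and mouse basophils also answer IL-18. Il1rl1 also gives a soluble decoy form of ST2, and Il1rap a soluble form of its chain. The deposited values are per gene and do not separate these forms.

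Il1rl1, Il18r1 and Il18rap lie side by side on the plus strand of chromosome 1 in the GENCODE M21 annotation of GRCm38: Il1rl1 (ENSMUSG00000026069) at chr1:40429570-40465415, Il18r1 (ENSMUSG00000026070) at chr1:40465552-40500854 and Il18rap (ENSMUSG00000026068) at chr1:40515362-40551705. Il1rap (ENSMUSG00000022514) lies apart, at chr16:26581704-26730117. Only 136 bases separate the end of Il1rl1 from the first start of Il18r1, and 14507 bases separate Il18r1 from Il18rap. In the same annotation Il1rap shares 552 exonic bases with an antisense gene, Gm20319, and the library kits do not mark strand, so reads there cannot be assigned to a strand. The other 3 genes overlap no other annotated gene.

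The sequences before the starts are shown because these neighbours came on at different steps while lying on 1 stretch of chromosome. RefSeq (GRCm38.p6) gave 7 windows of 250 bases before a transcript start for the 4 genes, all of them with at least 1. The motifs searched, on both strands with overlaps allowed, were a GATA motif (AGATAA or else AGATAG or else TGATAA or else TGATAG), a RUNX motif (TGTGGT), a STAT5 motif (TTCNNNGAA) and a PU.1 motif (GAGGAAGT). Capitals mark matches to the GATA motif only, which was picked for display after the sequences had been seen; GATA factors are known regulators of basophil and mast cell genes. The Il1rl1 windows are chr1:40429320-40429569 and, without the last bases that fall in an annotated exon, chr1:40439379-40439626. The stretch between Il1rl1 and Il18r1 is chr1:40465419-40465551, 133 bases counted from the RefSeq end of Il1rl1, which lies 3 bases past the GENCODE end given above, and the Il18rap window is chr1:40515112-40515361, all on the plus strand, 5′ to 3′.
Il1rl1, first start: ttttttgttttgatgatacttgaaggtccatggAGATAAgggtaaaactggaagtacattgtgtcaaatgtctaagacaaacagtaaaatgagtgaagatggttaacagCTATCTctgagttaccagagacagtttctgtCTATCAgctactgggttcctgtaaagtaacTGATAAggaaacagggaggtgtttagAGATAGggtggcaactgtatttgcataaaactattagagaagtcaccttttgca
Il1rl1, second start: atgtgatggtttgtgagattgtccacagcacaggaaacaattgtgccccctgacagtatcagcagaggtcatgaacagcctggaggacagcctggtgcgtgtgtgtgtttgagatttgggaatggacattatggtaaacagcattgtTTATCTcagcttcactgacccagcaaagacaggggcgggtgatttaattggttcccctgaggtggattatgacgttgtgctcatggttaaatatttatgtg
Il18r1, stretch after the end of Il1rl1: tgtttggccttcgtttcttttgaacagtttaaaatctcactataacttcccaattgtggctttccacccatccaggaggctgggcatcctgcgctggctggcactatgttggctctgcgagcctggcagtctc
Il18rap: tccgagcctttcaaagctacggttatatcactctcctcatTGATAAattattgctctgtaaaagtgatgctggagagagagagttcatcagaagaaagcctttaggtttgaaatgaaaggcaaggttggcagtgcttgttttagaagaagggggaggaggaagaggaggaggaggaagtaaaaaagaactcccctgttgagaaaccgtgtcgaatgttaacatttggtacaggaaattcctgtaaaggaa
The window before the first start of Il1rl1 held 5 matches, between 217 and 54 bases before the start. Of 32851 RefSeq windows of that length, 26.5% held at least 1 match, 1.35% at least 3 and 0.0426% (14 windows) at least 5. These windows were not matched for base composition, and G and C made up 37.6% of the first Il1rl1 window. The second Il1rl1 window and the Il18rap window held 1 match each, and the windows of Il18r1 and Il1rap held 0. The RUNX motif matched once at the end of the second Il1rl1 window, with its last 2 letters in annotated exon and outside the printed sequence, the STAT5 motif at 2 places in the third Il18r1 window and the PU.1 motif once in the Il18rap window. Of all windows 14.05%, 7.02% and 2.44% held at least 1 match to these, and 0.317% held at least 2 to the STAT5 motif. A match is a description of letters, not of a bound site, and the deposited values do not say which Il1rl1 start was used.

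Levels below are in CPM: reads per 1000000 of each library size after the scaling in the deposited table. Each library held between 29762981 and 42502405 reads on listed genes, so that a count of 0 allows up to 3 reads, or 0.0512 to 0.0745 CPM per library, for counting error only. The sorting markers were read first. Fcer1a had 0 reads in DN-GMPs. It ranged over 0.419 to 3.40 CPM among Pro-BMP libraries, 421 to 477 among Pre-BMP libraries and 2735 to 3079 among basophil libraries. Kit ran from 216 to 520 CPM in the 9 progenitor libraries and from 10.6 to 28.8 in basophils. Cdh1 RNA stood at 105 to 178 CPM in Pre-BMPs and 884.5 to 1201 in basophils, against the CDH1-negative label of the former. Leaving out the authors' scaling moved the median of all genes by -0.32 in log2 units in basophils against Pre-BMPs, so changes at that step are relative to the scaling used.

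Expression of all 4 chains differed among the populations (limma moderated F-test, adjusted p = 6.22e-05 for Il1rl1, 0.00287 for Il1rap, 1.96e-04 for Il18r1 and 1.08e-06 for Il18rap), a test that called 46.8% of all genes. They did so in different ways. Il1rl1 appeared at the Pro-BMP stage and was high from the Pre-BMP stage on, while Il18r1 was at or near 0 in every progenitor library and high in basophils. The accessory chains Il1rap and Il18rap were present at low level in all progenitors and rose in basophils.

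**Figure D1:**
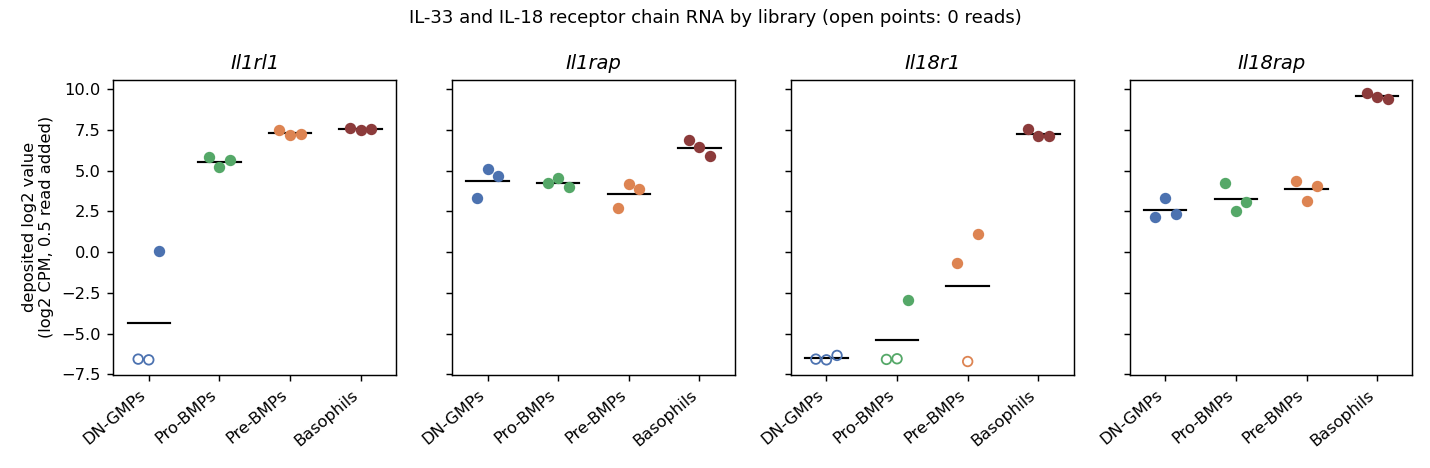
Deposited log2 values (vertical axis, log2 CPM with 0.5 read added) of the 4 receptor chain genes in the 12 libraries by population (horizontal axes); points are libraries, open points have 0 reads, and lines are means of 3. Il1rl1 climbs between DN-GMPs and Pre-BMPs, whereas the basophil libraries alone are high for Il18r1 and Il18rap.

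Il1rl1, the ligand-binding chain for IL-33, had 0 reads in DN-GMP replicates 1 and 2 and 42 reads, or 1.04 CPM, in replicate 3. In Pro-BMPs it stood at 56.5, 36.5 and 49.2 CPM. Pre-BMP libraries had 181, 145 and 153 CPM, and basophil libraries 198, 181 and 190.4. The 4 populations thus kept their order with no overlap between libraries, although the highest Pre-BMP library (181.27 CPM) and the lowest basophil library (181.33 CPM) were nearly equal. Between DN-GMPs and Pro-BMPs it rose by 9.90 in log2 units (SE 1.34, limma adjusted p = 0.00176). At this step 2.00% of all genes were called higher, and Il1rl1 was the only 1 of the 4 chains among them. The ratio of the mean CPM was 136, and it rests on the reads of DN-GMP replicate 3.

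From Pro-BMPs to Pre-BMPs the mean level of Il1rl1 was 3.37 times as high, at 160 ± 19.0 CPM against 47.4 ± 10.1 (SD, n = 3). This difference, 1.77 in log2 units (95% interval -1.17 to 4.72), was not called in the fit over all 12 libraries (limma adjusted p = 0.49). That fit shares 1 spread per gene over the populations, and the DN-GMP libraries, with 0, 0 and 42 reads, have the widest spread. The difference was called when DN-GMP replicate 3 was left out (limma adjusted p = 6.58e-04), with only Pro-BMPs and Pre-BMPs fitted (0.00221) and with voom weights (5.55e-05). Basophils against Pro-BMPs, at 2.02 in log2 units, went the same way: not called over all 12 libraries (limma adjusted p = 0.253) and called under those same alternatives (3.91e-05, 2.26e-04 and 2.77e-06) and with 5 reads added (0.0356). Between Pre-BMPs and basophils Il1rl1 was not called in any setting (lowest limma adjusted p 0.137), and its difference of 0.25 in log2 units (95% interval -2.69 to 3.20, limma adjusted p = 0.912) turned to -0.0079 with quantile normalization and to -0.067 without the scaling of library sizes.

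Il18r1, the ligand-binding chain for IL-18, had 0 reads in all DN-GMP libraries. In Pro-BMPs replicates 1 and 2 had 0 reads and replicate 3 had 7. In Pre-BMPs the libraries had 30, 0 and 114 reads, or 0.61, 0 and 2.18 CPM. The progenitor libraries overlapped, and none of their 3 pairs was called: Pre-BMPs against DN-GMPs came closest (limma adjusted p = 0.093). That pair was called without Pre-BMP replicate 2 (limma adjusted p = 0.00343), as was Pre-BMPs against Pro-BMPs (0.0194). In basophils Il18r1 stood at 183, 140.2 and 136 CPM, far above every progenitor library. Over Pre-BMPs it rose by 9.33 in log2 units (SE 1.72, limma adjusted p = 0.00175), a size that depends on the reads added before the logarithm (0.5), since it was 8.14 with 5 reads added. Against DN-GMPs, at 0 reads, the basophil mean of 153 ± 26.1 CPM was at least 2300.3-fold higher.

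Il18rap, the accessory chain for IL-18, was already measurable in progenitors that had no read of its partner. DN-GMP libraries had 4.44, 9.78 and 5.07 CPM, Pro-BMP libraries 19.1, 5.60 and 8.30, and Pre-BMP libraries 20.2, 8.82 and 16.8. These ranges overlapped. The largest of the progenitor differences, Pre-BMPs against DN-GMPs at 1.26 in log2 units (95% interval 0.247 to 2.26), missed the threshold (limma adjusted p = 0.0752). A call came without DN-GMP replicate 2 (limma adjusted p = 0.039), without Pro-BMP replicate 1 (0.0362) or without Pre-BMP replicate 2 (0.0432). In basophils the libraries stood at 855, 737 and 672 CPM, and the lowest was far above the highest progenitor library. Over Pre-BMPs it rose by 5.70 in log2 units (SE 0.459, limma adjusted p = 4.93e-06), and the mean was 49.3 times as high.

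Il1rap, the accessory chain for IL-33 and other cytokines of the family, had the smallest change of the 4 from DN-GMPs to basophils, 2.04 in log2 units (limma adjusted p = 0.00505). DN-GMP libraries had 9.76, 33.9 and 25.4 CPM, Pro-BMP libraries 19.1, 23.0 and 15.9, and Pre-BMP libraries 6.38, 17.9 and 14.5. All 3 progenitor populations overlapped, and no pair of them was called (limma adjusted p from 0.29 to 0.969). Thus Il1rap was not seen to move with Il1rl1 at the step from DN-GMPs to Pro-BMPs, where its difference was -0.09 in log2 units (95% interval -1.16 to 0.98). Basophil libraries had 116, 86.9 and 58.5 CPM, all above all progenitor libraries. Over Pre-BMPs it rose by 2.82 in log2 units (SE 0.487, limma adjusted p = 0.00117), or 6.73 times the mean.

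**Figure D2:**
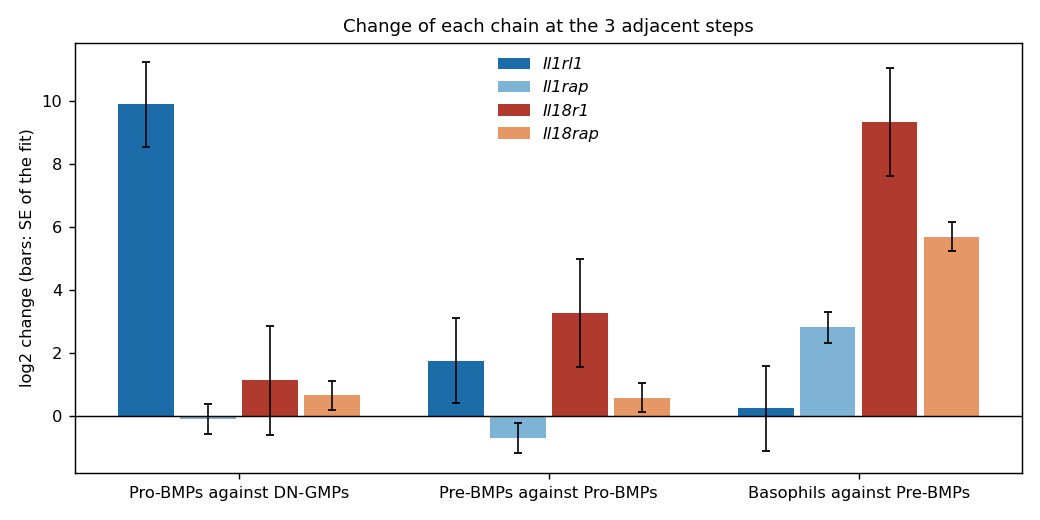
Log2 change (vertical axis) of the 4 chains at the 3 steps between neighbouring populations (horizontal axis); bars are limma estimates over 12 libraries and error bars their SE. Il1rl1 has its tall bar at the step from DN-GMPs to Pro-BMPs (9.90), and Il18r1 (9.33), Il18rap (5.70) and Il1rap (2.82) have theirs at the step from Pre-BMPs to basophils.

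At the step from Pre-BMPs to basophils 3 of the 4 chains were called higher and 0 lower, while 30.4% of all genes were called, 13.9% higher and 16.5% lower. At the step from Pro-BMPs to Pre-BMPs 0 of the 4 were called, by a fit that called 9.49% of all genes; unadjusted p-values were 0.0826 to 0.228, and voom weights called 1, Il1rl1. In the wider pairs, Pre-BMPs against DN-GMPs called 1 of the 4, Il1rl1 at 11.67 in log2 units (limma adjusted p = 1.17e-04), where 21.9% of all genes were called, 12.2% higher and 9.69% lower. Basophils against Pro-BMPs called 3 higher, all but Il1rl1, where 41.1% of genes were called, 19.3% higher and 21.8% lower. Basophils against DN-GMPs called all 4 higher, where 46.4% of genes were called, 23.2% higher and 23.2% lower; Il1rl1 (11.93) and Il18r1 (13.74) had the largest of these changes, both from a level at or near 0. Whether a gene changed more at the last step, from Pre-BMPs to basophils, than at the step from DN-GMPs to Pro-BMPs was tested directly, as the difference of the changes, which called 18.9% of all genes, 8.56% for a larger rise at the last step and 10.3% for the opposite. Il1rl1 changed by 9.65 less at the last step (a difference of -9.65 in log2 units, SE 1.90, limma adjusted p = 0.00488). Il18rap changed by 5.03 more (SE 0.649, limma adjusted p = 3.22e-04), Il1rap by 2.91 more (SE 0.689, limma adjusted p = 0.013) and Il18r1 by 8.20 more (SE 2.43, limma adjusted p = 0.0364). The call for Il18r1 was lost with voom weights (limma adjusted p = 0.0982), without a variance trend (0.0541) and when any 1 of 8 libraries was dropped (all but Pro-BMP replicate 3 and the Pre-BMP libraries), with limma adjusted p up to 0.0776. The calls of the other 3 genes held in all settings tried.

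Levels of the partner chains can be set side by side only per length, here CPM per kb of all annotated exons (6894 bases for Il1rl1, 11360 for Il1rap, 4817 for Il18r1 and 6752 for Il18rap). These lengths join all transcripts of a gene, so a gene that uses a short form is understated. In basophils the order of the level per kb was Il18rap (112 ± 13.7, SD, n = 3), Il18r1 (31.8 ± 5.42), Il1rl1 (27.5) and Il1rap (7.66 ± 2.52). Il18r1 (28.3 to 38.1) and Il1rl1 (26.3 to 28.7) overlapped there, while the other neighbours in this order did not. In Pre-BMPs the order was Il1rl1 (23.2 ± 2.75), Il18rap (2.26 ± 0.868), Il1rap (1.14 ± 0.522) and Il18r1 (0.193 ± 0.234), with Il18rap and Il1rap overlapping. In Pro-BMPs Il1rl1 led (6.87 ± 1.46), Il1rap (1.70 ± 0.313) and Il18rap (1.63 ± 1.06) overlapped, and Il18r1 was last (0.00827 ± 0.0143). In DN-GMPs Il1rap (2.02 ± 1.08) and Il18rap (0.952 ± 0.432) overlapped and stood above Il1rl1 (0.0504 ± 0.0874) and Il18r1, which was at 0.

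The balance of ligand-binding to accessory chain is given by library. For the IL-33 receptor, Il1rl1 per kb was 0 times the level of Il1rap in DN-GMP replicates 1 and 2 and 0.0678 times in replicate 3. It was 4.87, 2.62 and 5.10 times that level in Pro-BMPs, 46.8, 13.3 and 17.4 times in Pre-BMPs, and 2.82, 3.44 and 5.36 times in basophils. The Pre-BMP libraries were thus above those of all other populations in this ratio, and Pro-BMPs and basophils overlapped. For the IL-18 receptor the accessory chain was the more abundant in every library: Il18rap per kb was 3.33, 3.75 and 3.52 times the level of Il18r1 in basophils. With 3 libraries against 3, an exact permutation test of these ratios cannot go below p = 0.1, and none was run.

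**Figure D3:**
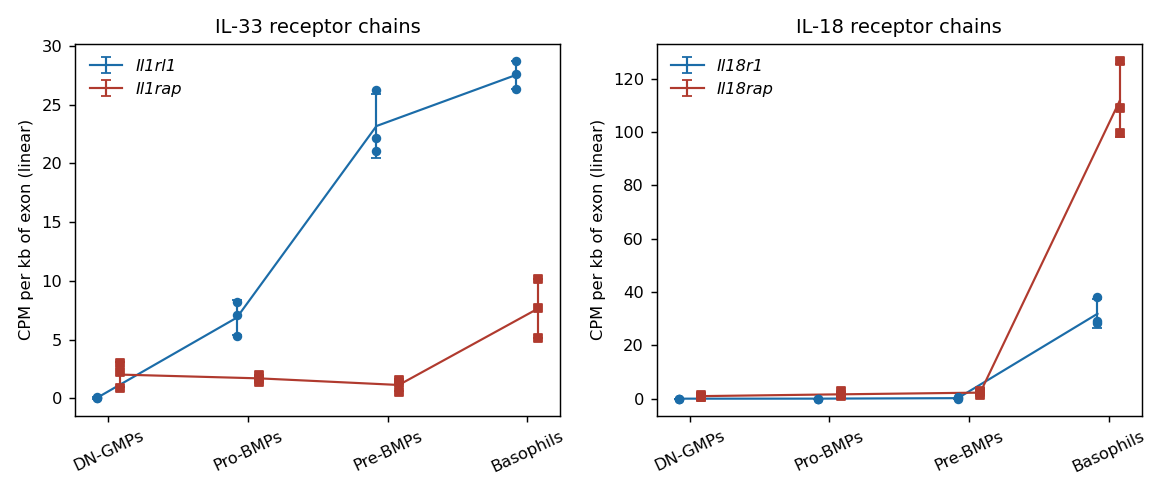
CPM per kb of exon (vertical axes, linear, a separate scale per panel) of the ligand-binding chain (circles) and the accessory chain (squares) of each receptor by population (horizontal axes); points are libraries, lines join means and bars are the SD of 3. Il1rl1 is at 23.2 in Pre-BMPs while Il1rap is at 1.14, and in basophils Il18rap is at 112 and Il18r1 at 31.8.

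The genes around the receptor cluster on chromosome 1 did not follow a common course. In order along the chromosome, the listed genes were Map4k4, Il1r2, Il1r1, Il1rl2, Il1rl1, Il18r1, Il18rap and Mfsd9; Slc9a4, Slc9a2 and Tmem182 were not analysed here. Map4k4, a kinase gene, averaged 19.2 ± 2.05, 9.50 ± 2.28, 21.8 ± 4.11 and 111.5 ± 22.8 CPM (SD, n = 3) from DN-GMPs to basophils. It rose by 2.35 in log2 units from Pre-BMPs to basophils (SE 0.245, limma adjusted p = 3.27e-05) and by 1.21 from Pro-BMPs to Pre-BMPs (SE 0.245, limma adjusted p = 0.0103). Il1rl2, the IL-36 receptor chain that also pairs with IL-1RAcP, ran the opposite way to Il18r1. Its libraries ranged from 8.72 to 33.4 CPM for DN-GMPs, from 4.70 to 11.6 for Pro-BMPs and from 0 to 2.97 for Pre-BMPs. It had 0 reads in every basophil library, at least 261-fold lower than in DN-GMPs. Its fall from Pre-BMPs to basophils was called (limma adjusted p = 0.0449) but lost in 15 of 21 other settings, with limma adjusted p up to 0.263. Il1r1, the receptor for IL-1, reached at most 5.81 CPM in any library, and Il1r2, its decoy, at most 2.45.

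**Figure D4:**
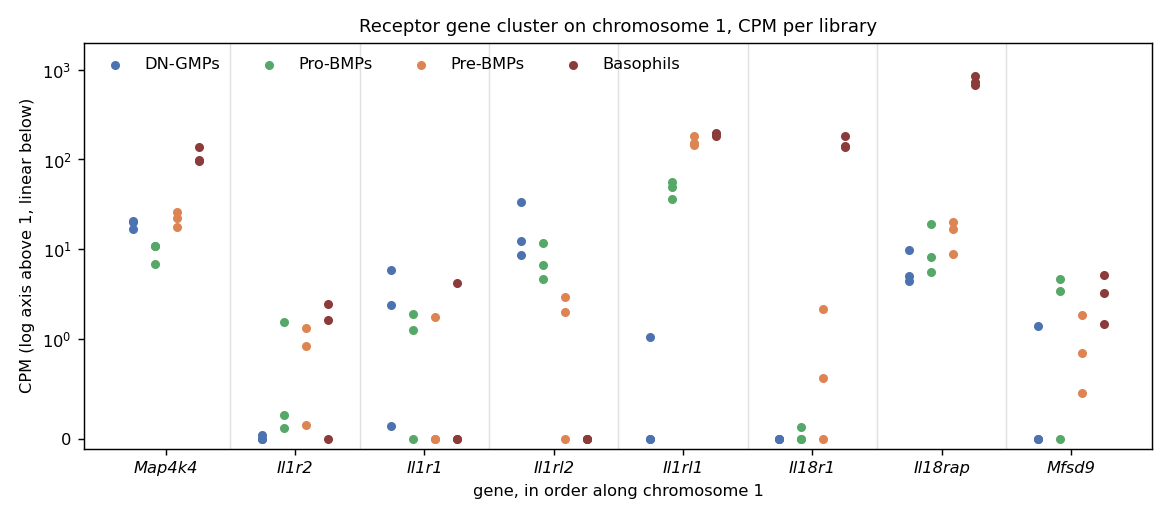
CPM (vertical axis, log scale above 1 and linear below) of the listed genes of the chromosome 1 cluster in genome order (horizontal axis), with 3 points per population. Il18r1 and Il18rap are high in basophils alone, Il1rl1 is also high in Pre-BMPs, and Il1rl2 is at 0 in basophils.

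Other chains and decoys of the family were counted from a list. Of 6 measured genes of 8 (Sigirr, Il1r1, Il1r2, Il1rl2, Il1rn and Il18bp), 0 were called at the first and at the second step by limma, with or without voom weights, where 2.53% and 9.49% of all genes were called; at an unadjusted p under 0.05 there were 0 and 1. From Pre-BMPs to basophils 1 was called higher and 1, Il1rl2, lower, against 13.9% and 16.5% of all genes. Sigirr, an inhibitory member, averaged 35.7 ± 14.0 CPM in DN-GMPs and 62.4 ± 5.78 in basophils (SD, n = 3). It was not called at any step between neighbouring populations. In the wider pairs it was called higher in basophils against DN-GMPs (0.89 in log2 units, limma adjusted p = 0.0199) and against Pro-BMPs (0.82, 0.0322). Of all genes 23.2% and 19.3% were called higher in these pairs. The gene called higher from Pre-BMPs to basophils was Il1rn, the IL-1 receptor antagonist, at 5.55, 7.59 and 7.75 CPM in basophils and 0.569, 0 and 0 in Pre-BMPs (limma adjusted p = 0.0223). Its call was lost when any of 5 libraries was left out: Pre-BMP replicate 2 or 3 or any basophil library (limma adjusted p up to 0.0819). Il18bp, a soluble trap for IL-18, was at 4.64 CPM or less in every library. Il18 itself was at 1.34 CPM or less in every library and had 0 reads in basophils.

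Downstream of the receptors, 47 of 49 listed signalling genes were measured. From DN-GMPs to Pro-BMPs, where Il1rl1 appeared, 2 were called higher and 1 lower (2.00% and 0.536% of all genes), and the median change was 0.11 in log2 units against 0.02 over all genes. Nfkbia, which encodes the NF-κB inhibitor IκB alpha, rose by 1.02 (SE 0.135, limma adjusted p = 0.00143) and was called in all 21 other settings as well. Irak3, an inhibitory IRAK, was called higher (limma adjusted p = 0.0153) and Myd88 lower (0.018). The call of Irak3 was lost without a variance trend, with the populations fitted alone and without DN-GMP replicate 3, Pro-BMP replicate 1 or Pro-BMP replicate 3 (limma adjusted p up to 0.103), and that of Myd88 without Pro-BMP replicate 1 or 2 (up to 0.0749). From Pro-BMPs to Pre-BMPs limma called 0 higher and 1 lower, against 4.80% and 4.69% of all genes; at an unadjusted p under 0.05 there were 7 and 5, and with voom weights 1 and 2. The gene called lower was Mapkapk2, a kinase downstream of p38, which fell by 0.57 (SE 0.111, limma adjusted p = 0.00854, and 0.0517 without a variance trend). Over these 2 steps together, Pre-BMPs against DN-GMPs, 8 of the 47 were called higher and 5 lower. Of all genes 12.2% and 9.69% were called in that pair.

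From Pre-BMPs to basophils 20 of the 47 signalling genes were called higher and 4 lower, against 13.9% and 16.5% of all genes, with a median change of 0.58 against -0.10 over all genes. Without the authors' scaling the counts were 11 higher and 7 lower, in a setting that called 9.47% of all genes higher and 26.2% lower. Of 16 proximal genes 6 were higher and 2 lower. Myd88, the adaptor of both receptors, stood at 145, 128 and 114.5 CPM in basophils against 35.8, 41.2 and 53.6 in Pre-BMPs, a rise of 1.58 in log2 units (SE 0.168, limma adjusted p = 3.70e-05). Peli1, a ubiquitin ligase that acts with IRAK kinases, rose by 1.47 (SE 0.28, limma adjusted p = 0.00224). Tifa, a TRAF6-binding adaptor, fell by 3.70 (SE 0.376, limma adjusted p = 2.70e-05), to 0.856 to 2.22 CPM. Peli2 was also called lower, a call lost without Pre-BMP replicate 1 (limma adjusted p = 0.0651) and with the populations fitted alone (0.0906).

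Of 17 NF-κB genes 9 were higher in basophils than in Pre-BMPs and 0 lower by limma (0 lower also with voom weights, and 1 at an unadjusted p under 0.05). At this step 13.9% of all genes were called higher and 16.5% lower. Nfkbia stood at 287, 290.5 and 287 CPM in basophils and 94.9, 84.5 and 89.5 in Pre-BMPs, a rise of 1.69 in log2 units (SE 0.135, limma adjusted p = 4.89e-06). The atypical inhibitors Nfkbiz and Nfkbid and the subunit Rel were also called, with rises of 3.05, 1.82 and 1.46. Of 14 MAP kinase genes 5 were higher and 2 lower. Map2k4, a kinase upstream of JNK and p38, rose by 1.30 (SE 0.145, limma adjusted p = 5.40e-05). Map2k6, which activates p38, was called lower, at 10.8 ± 5.74 CPM in Pre-BMPs (SD, n = 3) and at 0, 3.68 and 0 in the basophil libraries (limma adjusted p = 0.0104), a call lost with the populations fitted alone (0.064). Mapk8, which encodes JNK1, was called lower and Jun higher. The call of Mapk8 was lost without Pre-BMP replicate 2 or basophil replicate 2 or 3 and with the populations fitted alone (limma adjusted p up to 0.0636), and that of Jun without Pre-BMP replicate 1 or 2 or basophil replicate 1 or 3 and without the scaling of library sizes (up to 0.0779).

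**Figure D5:**
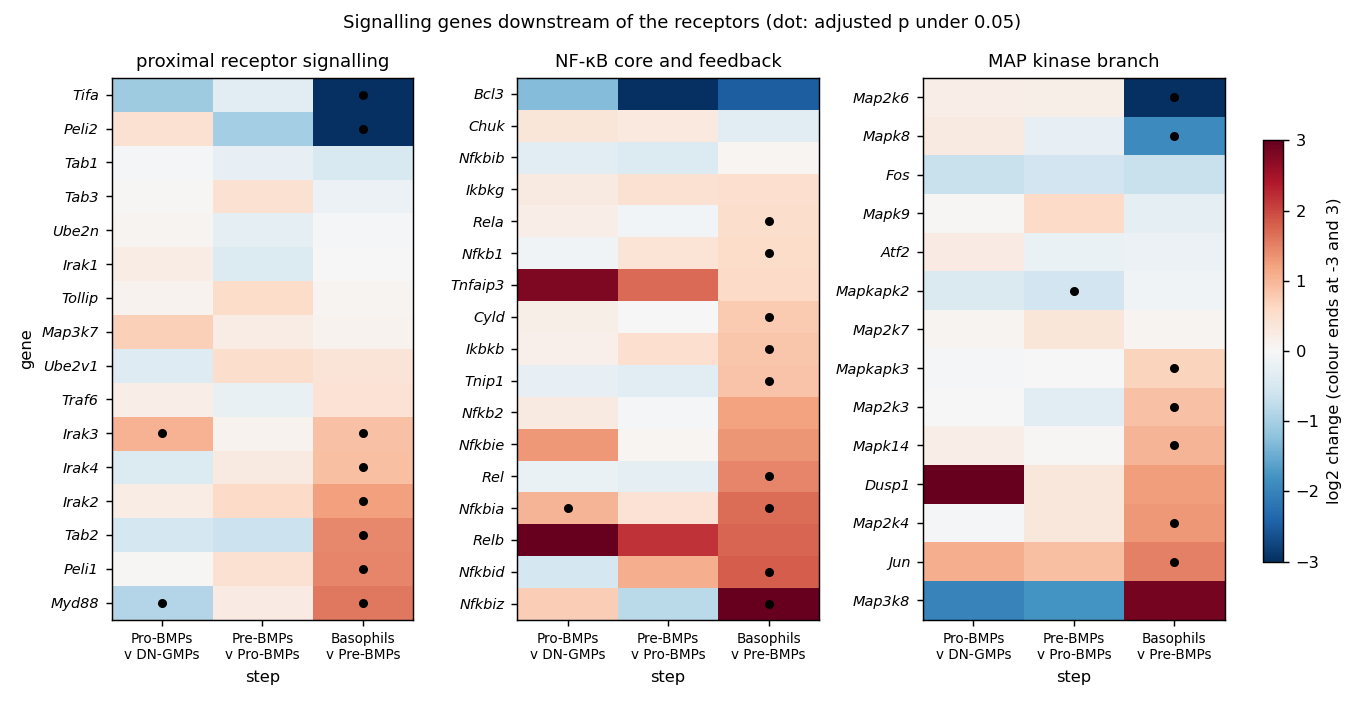
Log2 changes (colour, ending at -3 and 3) of the measured proximal, NF-κB and MAP kinase genes (rows) at the 3 steps (columns), with dots where the limma adjusted p was under 0.05. Dots gather in the column of basophils against Pre-BMPs, with 6, 9 and 5 higher in the 3 panels and 2, 0 and 2 lower.

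Cytokines that stimulated basophils are known to make were read from a list of 12, of which 5 were measured: Il4, Il6, Ccl3, Ccl4 and Tnf. From DN-GMPs to Pro-BMPs 2 were called higher, and from Pro-BMPs to Pre-BMPs 2, against 2.00% and 4.80% of all genes; from Pre-BMPs to basophils 4 were, against 13.9%. Il6 had 0 reads in DN-GMPs and averaged 3.23 ± 1.71, 21.6 ± 8.72 and 180.4 ± 13.2 CPM (SD, n = 3) in the later populations. It was called at each of the 3 steps in all settings tried. Il4 had 0 reads in DN-GMPs as well and reached 121, 110.5 and 115 CPM in basophils. Its calls were each lost in some settings: at the first step with 5 reads added, with voom weights and with the populations fitted alone (limma adjusted p up to 0.128), and later when libraries were left out. From Pro-BMPs to Pre-BMPs it was lost with any of the compared libraries but Pro-BMP replicate 3 left out, and with these populations fitted alone (limma adjusted p up to 0.0869). From Pre-BMPs to basophils it was lost with any of the compared libraries left out (up to 0.0652). Ccl3 and Ccl4, like Il18r1, were near 0 in progenitors and high in basophils, with Ccl3 at 605, 513 and 471 CPM. The call of Ccl4 was lost without Pre-BMP replicate 2 (limma adjusted p = 0.0609). Tnf was at 3.33 CPM or less in every library.

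The genes closest to each chain in course were ranked by Pearson's r over the 12 deposited log2 values among 9480 other genes that reached a mean of 10 CPM in some population. These 12 points fall into 4 populations, so r reflects population means and, for chains near 0 reads, single libraries, and it is given as a description. All 5 genes closest to Il1rl1 were, like it, highest among DN-GMP libraries in replicate 3 (Rnase6 at 0, 0 and 1.39 CPM). All 5 closest to Il18r1 were, like it, lowest among Pre-BMP libraries in replicate 2. Il1rl1 was closest to Rnase6 (r = 0.995), Slc8a1 (0.985), Serpini1 (0.965), Scin (0.962) and Syde2 (0.958). Rnase6 stood at 0.464 ± 0.803, 26.5 ± 7.47, 144 ± 18.4 and 73.4 ± 8.69 CPM (SD, n = 3) along the order of stages, so it was lower in basophils than in Pre-BMPs in the mean. Il18r1 was closest to Pnpla7 (0.98), Man2b1 (0.978), Frmd4b (0.971), a gene listed only as ENSMUSG00000099025 (0.971) and Shisa5 (0.97). Il18rap was closest to Jund (0.993), Cd53 (0.991), Cebpa (0.988), Rgs2 (0.988) and Zyx (0.987). Cebpa, a C/EBP transcription factor, was at 30.1 ± 7.54, 33.0 ± 6.84, 42.1 ± 5.38 and 138 ± 23.9 CPM in the same order. Il1rap was closest to Itgb1 (0.957), Tbl1xr1 (0.948), Cracr2a (0.945), Slc35g1 (0.935) and Actr2 (0.933). Among the chains themselves, r was 0.937 for Il18r1 and Il18rap and 0.21 for Il1rl1 and Il1rap.

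Markers of other cells that can carry these receptors were summed in each library. CD49b, part of the basophil gate, is also found on NK cells, which use IL-18. Of 20 NK and T cell markers 4 were measured (Nkg7, Gzmb, Klrk1 and Prf1), and their sum was 441 to 558 CPM in basophils, below that of every progenitor library (643 to 975). Nkg7, which the progenitors held at 609 to 962 CPM, made up 418 to 532 of the basophil sum. From Pre-BMPs to basophils Nkg7 and Gzmb were called lower, against 16.5% of all genes, and Klrk1 (0, 0.602 and 0 CPM in basophils) and Prf1 were not called. Gzmb was the only 1 of the 4 called higher at the first step (10.2 in log2 units, limma adjusted p = 1.38e-08) and at the second (3.94, 2.99e-05). Of all genes 2.00% and 4.80% were called higher there. Nkg7 was called lower at the second step. Basophils against DN-GMPs called Gzmb higher (10.8, limma adjusted p = 1.65e-09) and Nkg7 and Klrk1 lower, where 23.2% of all genes were called each way. Prf1 averaged 0, 0.433, 0.828 and 2.72 CPM from DN-GMPs to basophils, with a log2 difference of 6.44 between these ends (limma adjusted p = 0.0521). Of 9 markers of type 2 innate lymphoid cells, which carry ST2, 7 were measured, and their sum was 184 to 227 CPM in basophils against 27.2 to 34.5 in Pre-BMPs, 42.8 to 47.1 in Pro-BMPs and 7.45 to 23.3 in DN-GMPs. From Pre-BMPs to basophils 2 of the 7 were called higher and 0 lower by limma, against 13.9% and 16.5% of all genes. The 2 were Il7r, at 106 to 135 CPM in basophils and the largest part of the sum, and Thy1, at 6.45 to 7.47 CPM (log2 change 7.63, limma adjusted p = 0.0128). Against DN-GMPs 5 of the 7 were called higher in basophils, where 23.2% of all genes were called higher. These were Il7r, Thy1, Rora (28.7 to 46.3 CPM), Il17rb (31.3 to 37.1) and Gata3 (0.969 to 2.52). Klrg1 was at 0.0231 to 4.96 CPM in basophils and Icos at 0. Their part in the rise of the chains was not tested. The sum of the 2 measured mast cell markers of 10, Cma1 and Tpsb2, was 0.0412 to 0.0745 CPM in DN-GMPs and 0.547 to 1.74 in Pro-BMPs. It was 82.7 to 289 CPM in Pre-BMPs and 0.0463 to 1.61 in basophils, where Il1rl1 stood at 181 to 198. From Pro-BMPs to Pre-BMPs Tpsb2 (11.5 in log2 units) and Cma1 (7.16) were called higher, against 4.80% of all genes. From Pre-BMPs to basophils these 2 genes were called lower, against 16.5%. The part of mast cell markers in the course of the chains was not tested. All 6 eosinophil markers were measured. Their sum ranged over 26.3 to 48.3 CPM among DN-GMP libraries and 1863 to 2919 among Pro-BMPs. It was 2125 to 3505 among Pre-BMPs and 345 to 504 among basophils. At the first step, where Il1rl1 rose, 5 of the 6 were called higher and 0 lower, against 2.00% and 0.536% of all genes. From Pre-BMPs to basophils 0 were called higher and 5 lower, against 13.9% and 16.5%. The innate lymphoid sum also moved up at the first step, where 1 of its 7 genes, Il17rb, was called higher (1.97 in log2 units, limma adjusted p = 0.0237). The part of these lists in the rise of Il1rl1 was not tested.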

How the data were processed

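Bulk RNA sequencing libraries of 4 sorted mouse bone marrow populations, 3 each, were analysed from 1 deposited table. The labels' protocols describe double-sorted cells in TRIzol and the SmartSeq v4 and Nextera XT kits. Trimmomatic, STAR, deepTools and HTSeq are named per the submitters' processing notes. Versions, genome build and annotation were not given in the sources used here. The authors deposited log2 values. In each column, 2 raised to the value was a whole number of reads plus 0.5, times a constant, to within 0.001 for 100% of values, so reads, CPM and a scaled library size per library (40263971 to 58553590 reads) were taken back from them. The 3 rows for reads on no gene were left out (of table reads, the no-feature row held 6.65% to 12.6%, the ambiguous row 3.63% to 4.14% and the multiply aligned row 8.51% to 12.1%).

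The deposited log2 values of all 14560 genes were fitted with limma (version 3.58.1, R version 4.3.3), 1 mean per population over 12 libraries, moderated variances with a trend, and two-sided tests with Benjamini-Hochberg adjustment over all genes; calls used an adjusted p under 0.05. The script was tested on simulated data, with changes placed only in well-expressed genes and the same dispersion for all genes. Changes from a level near 0 reads were not simulated. All 6 pairs of populations, the F-test over 4 populations and the difference of the last and the first step were tested. Alternatives were 5 reads added, genes with at least 1 CPM in at least 3 libraries, voom weights, no trend, other scalings, a replicate block, 2 populations fitted alone and each library left out. Folds against a population at 0 reads use 3 reads per library. Gene lengths and coordinates are GENCODE M21 (GRCm38), in which all 14560 IDs were looked up and 14515 matched. Within populations, libraries differed by more than sampling noise.

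The named genes are the 4 chains, genes of the lists (per list and step, up to 4 called genes with the largest change, with further members given as values) and, for each chain, the 5 genes with the highest r. The chains and the lists were chosen with earlier results of these data known. Lists were the other IL-1 receptor family chains, IL-1 family ligands and their processing, proximal signalling, NF-κB, MAP kinase, basophil cytokines, chromosome 1 neighbours, sorting markers, and markers of NK and T cells, type 2 innate lymphoid cells, mast cells, eosinophils, neutrophils, monocytes and dendritic cells, and B cells.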

Additional observations from a re-analysis of the deposited data

How the results depend on the processing

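Of 32 tests on the 4 chains, 23 kept their direction and their side of the threshold in all settings tried. Causes of the changes listed here were not tested, beyond what each setting leaves out. Il1rl1 in Pre-BMPs against Pro-BMPs (1.76 with voom weights, 1.77 with the populations fitted alone, 1.59 to 1.91 with a library left out) and in basophils against Pro-BMPs (2.02 with 5 reads added, with voom weights and with the populations fitted alone, 1.85 to 2.16 with a library left out) was called in those settings or without DN-GMP replicate 3. Its change from Pre-BMPs to basophils, not called, turned to -0.0079 with quantile normalization and -0.067 with library totals alone. With a library left out, changes ranged from -0.62 to 0.28 for Il1rap and from -0.059 to 1.75 for Il18r1 in Pro-BMPs against DN-GMPs, turning sign (0.28, 0.07 and 0.04 for Il1rap without DN-GMP replicate 2 or 3 or Pro-BMP replicate 3, and -0.059 for Il18r1 without Pro-BMP replicate 3). They ranged from 1.66 to 5.58 for Il18r1 in Pre-BMPs against Pro-BMPs, from 2.80 to 6.72 in Pre-BMPs against DN-GMPs, and from 1.01 to 1.61 for Il18rap in the latter pair. The last minus the first step of Il18r1 was 8.20 with voom weights and without a trend, and 5.89 to 9.81 with a library left out.

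Signalling genes called higher and lower moved as follows. In Pro-BMPs against DN-GMPs, 1 was higher without a trend and with the populations fitted alone, and 1 to 3 higher and 0 to 1 lower with a library left out. In Pre-BMPs against Pro-BMPs, 1 was higher with voom weights and with the populations fitted alone; 2 were lower with 5 reads added, with voom weights and with the populations fitted alone, and 0 without a trend; with a library left out 0 to 1 were higher and 1 to 2 lower. In basophils against Pre-BMPs, 11 were higher and 7 lower with library totals alone (9.47% and 26.2% of all genes), 1 lower with the populations fitted alone, and 14 to 21 higher and 3 to 4 lower with a library left out.

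No pairing by replicate number was seen: deviations of the 18 same-numbered pairs correlated between -0.0729 and 0.102. A library correlated best with its own number in 12 of 36 cases. These values cannot tell whether same-numbered libraries came from the same mouse. With a replicate block, Il1rl1 in Pro-BMPs against DN-GMPs kept its change of 9.90 (limma adjusted p = 0.00347), 312 genes were called in place of 369 at that step, and no call of the 4 chains changed. Depth limits the progenitor values of Il18r1 and the DN-GMP values of Il1rl1, which are at or near 0 reads.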

Other observations

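The ligand and processing list had 6 measured genes of 13, and limma called 2 higher and 0 lower from Pre-BMPs to basophils (the same counts with voom weights, and 2 and 1 at an unadjusted p under 0.05), where 13.9% and 16.5% of all genes were called. Gsdmd, the pore-forming gasdermin through which IL-1 family cytokines can leave a cell, stood at 91.7, 78.3 and 98.8 CPM in Pre-BMPs and 170.1, 179 and 195 in basophils, a rise of 1.02 in log2 units (SE 0.176, limma adjusted p = 0.00117). Nlrp3, an inflammasome sensor, had 0.203, 0.173 and 0.23 CPM in Pre-BMPs and 30.4, 22.2 and 4.68 in basophils (limma adjusted p = 0.00394). Basophil replicate 3 was the low library for Nlrp3, and it was also the lowest basophil library for all of Il1rap, Il18r1 and Il18rap.

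Neutrophil markers summed to 611 to 913 CPM in basophils and 70.2 to 274 in Pre-BMPs, of which Cxcr2 made up 538 to 810 in basophils. S100a8 stood at 18.3 to 27.0 CPM in basophils and Ly6g at 0 to 1.71. From Pre-BMPs to basophils limma called 1 of the 9 neutrophil markers higher, Cxcr2, and 0 lower, against 13.9% and 16.5% of all genes. Basophils against DN-GMPs called 5 higher (Cxcr2, Retnlg, Camp, Ltf and S100a9) and 1 lower (S100a8), where 23.2% of all genes were called each way. Monocyte and dendritic cell markers summed to 253 to 438 CPM in basophils and 29.2 to 36.8 in Pre-BMPs, and Ccr2 made up 221 to 397 of the former. From Pre-BMPs to basophils limma called 2 of the 6 measured genes of that list higher, Ccr2 (5.63 in log2 units) and F13a1 (3.02), and 2 lower, Ly6c2 (-1.51) and Flt3 (-6.01). Of all genes, 13.9% were called higher and 16.5% lower there. The 2 measured B cell markers of 6, Cd79a and Cd79b, summed to 64.1 to 76.3 CPM in basophils and 30.4 to 40.9 in Pre-BMPs.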
